A study of Mus musculus with 9 samples.

Results

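Butyrate was compared directly with trichostatin A (TSA) in mouse dendritic cells (DC), the antigen-presenting cells that prime T cells. The comparison takes the 6 arrays of treated cells, 3 with TSA and 3 with butyrate, out of 9 in the series, and covers all 12393 genes that a named probe set measured. The other 3 arrays hold untreated cells and are given beside the treated ones. Cells of all 3 groups came from spleens of mice 6 to 8 weeks old that carried B16 melanoma tumours secreting Flt3L, a factor under which DC multiply. They were enriched on CD11c magnetic beads. The labels name no genotype, dose or treatment time. Doses and times therefore cannot be said to be matched, and a difference between the groups cannot be told apart from a difference in dose or time. The labels also do not say whether the 3 arrays of a group come from separate mice or cultures, so p-values measure the spread between these samples, which may be technical.

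Histone deacetylases (HDACs) remove acetyl groups from lysines of histones and other proteins, and inhibitors of the zinc-dependent HDACs leave these lysines acetylated. TSA is a hydroxamic acid that binds the zinc of the active site. Butyrate is a small fatty acid that bacteria of the gut release. Besides inhibiting HDACs it enters cells through monocarboxylate transporters, binds cell surface receptors and can be burned in mitochondria. In DC, HDAC inhibitors are known to hold back inflammatory cytokines and maturation. The 1 pair of compounds is set side by side here, and the question is which genes differ between them.

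All levels are log2 values made by the authors with RMA (background correction, quantile normalization and a summary over the probes of a set), so a difference of 1 is 2-fold. Differences are butyrate minus TSA with limma's standard error (SE) and n = 3 arrays per group. Unless untreated cells are named, a gene that rises or falls does so against TSA. Its direction from untreated cells may be the opposite. A gene was called when limma's p, adjusted over all 12393 genes by the Benjamini-Hochberg method, was under 0.05. A gene is read from its brightest probe set; of 73 called genes named here that have a further probe set, 11 had one of opposite sign, none of them called. Arrays of TSA and butyrate correlated with r between 0.9911 and 0.9934 across genes, which are not independent replicates, against 0.9979 to 0.9985 within TSA and 0.9976 to 0.9977 within butyrate. The markers of the labelled cell type were present: Itgax, which encodes CD11c, had mean levels of 8.25 with TSA and 8.50 with butyrate, the Flt3L receptor Flt3 10.43 and 10.39, and the MHC class II chain H2-Ab1 14.09 and 13.89.

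Many small differences and few large ones separated the compounds. Of the 12393 genes, 4448 (35.9%) were called: 1968 (15.9%) were higher with butyrate and 2480 (20.01%) lower. At least 2-fold, 11 genes (0.0888%) were higher and 36 (0.290%) lower, and none differed 4-fold. Of the calls, 85.3% were under 0.5 in size. Against the untreated arrays, which both comparisons share, 47.3% of the genes were called for TSA and 58.4% for butyrate. The 3 butyrate arrays lay wholly above or below the 3 TSA arrays for 50.3% of all genes. The median difference over all genes was 0.03, with the 5th and 95th percentiles at -0.44 and 0.34.

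These directions are relative to the bulk of the genes on each array. The hybridization spike-ins, bacterial RNAs added in fixed amounts before hybridization, read 10.38 ± 0.03 on the TSA arrays and 10.78 ± 0.06 on the butyrate arrays (SD, n = 3), higher by 0.40, and the exact two-sided permutation p of 0.1 is the smallest that 3 against 3 arrays allow. The poly-A spike-ins, added to the RNA before labelling, were higher by 0.27 (exact permutation p = 0.1). With the arrays scaled to the hybridization spike-ins the median difference of all genes became -0.37, and 93 genes were called higher and 10047 lower. On that scale 1583 of the 1968 genes called higher turned negative and 375 of them were called lower. All 2480 genes called lower and all 11 genes at least 2-fold higher kept their calls. This is no test of them, since the scaling lowers every difference by 0.40. It could not turn a fall positive or a 2-fold rise negative, and rises a little above 0.40 nearly vanish on it. Scaled to the poly-A spike-ins, 59 genes were called higher and 3075 lower. A further hybridization control, the probe sets for phage Cre, read 14.63 with TSA and 14.74 with butyrate, a difference of 0.11 (exact permutation p = 0.1), and did not enter this scaling. The Cre probe sets lie near the top of the range, as the treated arrays had maxima of 15.14 to 15.19. How far their difference can be set beside the 0.40 was not tested. Below, counts of gene groups, medians or both are given on the deposited scale and again on the hybridization scale, since the sign of small rises depends on this choice. Counts on the deposited scale are to be read beside the 15.9% higher and 20.01% lower over all genes. Those on the hybridization scale stand beside 93 higher and 10047 lower of 12393.

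Calls also moved with the expression level. Among the 3099 dimmest genes, 305 were higher and 49 lower with butyrate, with a median difference of 0.08, whereas among the 3098 brightest 560 were higher and 1085 lower, with a median of -0.07. Restricted to the 6196 genes above the median level, 34.8% of the calls were higher, against 44.2% over all genes. How far this trend enters single results was not tested.

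**Figure D1:**
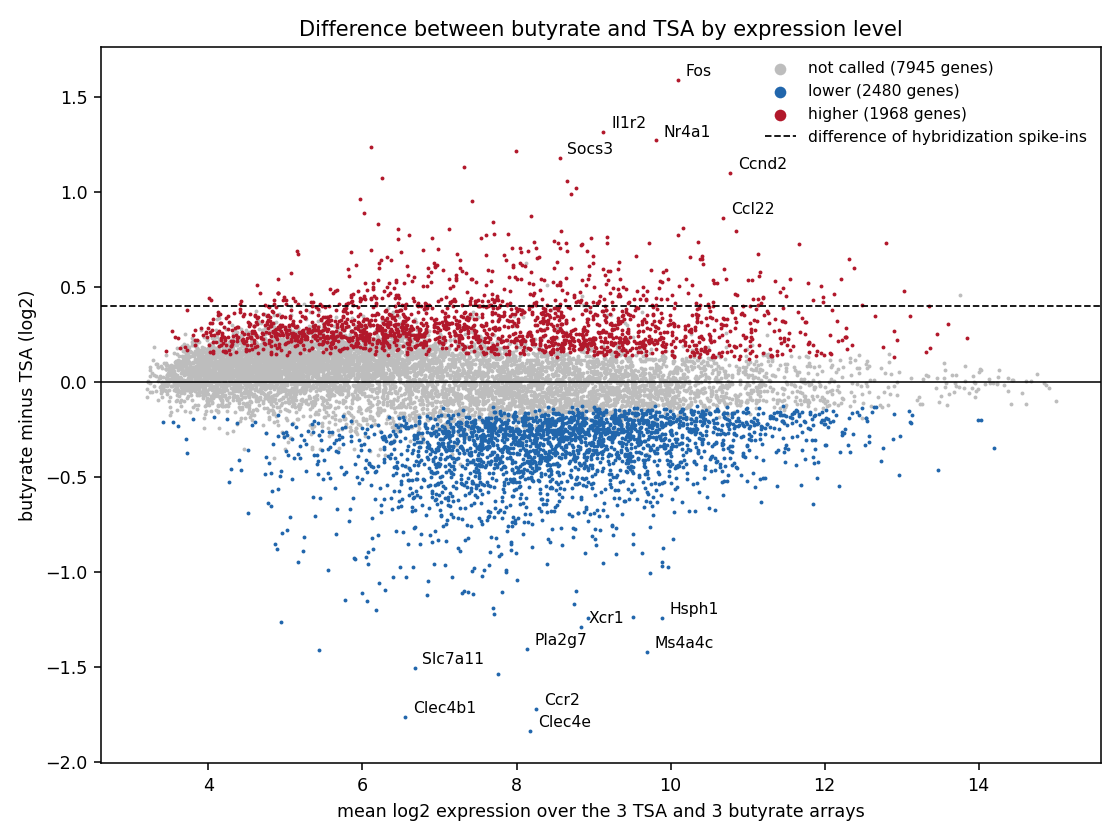
Butyrate minus TSA (log2, vertical axis) for each of the 12393 genes against its mean log2 level over the 6 treated arrays (horizontal axis), with genes called higher in red, called lower in blue and the others in grey. The 11 rises and 36 falls of at least 2-fold stand far out from the bulk, and the dashed line marks 0.40, the difference of the hybridization spike-ins.

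The largest rise with butyrate over TSA belonged to Fos, a subunit of the transcription factor AP-1 whose gene responds to signals within minutes. Fos levels were 9.24, 9.36 and 9.30 on the TSA arrays and 10.89, 10.86 and 10.92 on the butyrate arrays, against 8.94, 9.34 and 8.95 in untreated cells. All butyrate arrays lay above every other array, while the TSA and untreated arrays overlapped. The difference of 1.59 ± 0.097 made Fos 3.01-fold higher with butyrate (adjusted p = 7.49e-06 in limma).

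Nr4a1 (Nur77), an orphan nuclear receptor that is also induced within minutes, read 9.03, 9.22 and 9.26 with TSA and 10.46, 10.35 and 10.52 with butyrate, and 8.53, 8.69 and 8.55 untreated. The 3 groups did not overlap, with butyrate highest, and the difference was 1.27 ± 0.076 (2.42-fold, adjusted p = 7.49e-06 in limma). Socs3, the feedback inhibitor of STAT3 signalling, read 8.07, 7.95 and 7.89 with TSA and 9.05, 9.17 and 9.23 with butyrate. Its TSA arrays overlapped the untreated ones, which read 8.01, 8.09 and 8.06, so that Socs3 stood apart with butyrate alone, 2.26-fold above TSA (1.18 ± 0.064). Both further probe sets of Socs3 gave differences of 0.77 and 1.04.

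The upstream sequences of Fos and Nr4a1 are shown because both genes were among the 3 largest rises and are known to be switched on through short sites close to their start. The capitals mark TGACG, the core of the site bound by the CREB family, read on either strand (CGTCA on the other), and in Fos also TATAAA, the TATA box on the gene's strand. The 250 bases end at the base before the RefSeq start on GRCm38.p6; Fos lies on the plus strand at chr12:85473640-85473889 and Nr4a1 on the plus strand at chr15:101266596-101266845.
Fos: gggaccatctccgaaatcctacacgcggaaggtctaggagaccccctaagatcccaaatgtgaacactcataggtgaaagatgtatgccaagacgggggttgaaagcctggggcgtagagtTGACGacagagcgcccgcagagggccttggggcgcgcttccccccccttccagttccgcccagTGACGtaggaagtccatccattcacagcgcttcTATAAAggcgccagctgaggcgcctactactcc
Nr4a1: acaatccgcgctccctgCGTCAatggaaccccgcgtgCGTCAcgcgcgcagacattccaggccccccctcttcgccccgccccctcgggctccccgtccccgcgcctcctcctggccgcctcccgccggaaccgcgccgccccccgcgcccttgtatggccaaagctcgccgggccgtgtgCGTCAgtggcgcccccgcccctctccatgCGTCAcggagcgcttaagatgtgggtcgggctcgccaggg

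Fos holds TGACG at 129 to 125 and 66 to 62 bases before its start, and Nr4a1 holds 4 copies, the nearest at 40 to 36 bases. Of the 9882 measured genes with such a window, 27.0% hold TGACG at least once and 1.26% hold 3 or more copies. Of the 26 immediate early genes with a window, 14 hold it. The match is a description of the sequence and says nothing of binding in these cells.

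Immediate early genes are the transcription factors and regulators that signals switch on without new protein synthesis. Of 32 measured, 11 were higher with butyrate, 3 lower and 18 not called, beside 15.9% higher and 20.01% lower over all genes, with a median difference of 0.08; on the hybridization scale the median was -0.32, with 5 higher and 20 lower. Beside Fos and Nr4a1, the stress gene Ier3 was higher by 0.79 ± 0.092 and Klf2, a regulator of leukocyte quiescence and trafficking, by 0.70 ± 0.046. Klf2 read 8.24, 8.24 and 8.15 with TSA and 8.94, 8.90 and 8.91 with butyrate, on either side of the untreated arrays at 8.49, 8.51 and 8.45.

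Of 18 genes of MAP kinase feedback, a list that also holds kinases of the pathway, 8 were higher and 2 lower, and the median was 0.14 (-0.26 on the hybridization scale, with 1 higher and 11 lower). The ERK phosphatase Dusp6 was higher by 0.64 ± 0.078, the broader phosphatase Dusp1 by 0.50 ± 0.058 and the Ras pathway inhibitor Spred2 by 0.47 ± 0.053; Mapk14, the p38 kinase itself, was higher by 0.46 ± 0.052. Dusp1 read 11.63, 11.68 and 11.77 with TSA and 12.21, 12.19 and 12.21 with butyrate, and the butyrate arrays lay at or just below the untreated 12.22, 12.36 and 12.21.

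Growth and signalling genes were among the other large rises. Ccnd2, the D-type cyclin that drives cells into the cell cycle, read 10.34, 10.19 and 10.14 with TSA and 11.22, 11.36 and 11.39 with butyrate. The TSA arrays overlapped the untreated ones (10.41, 10.30 and 10.21), and butyrate was 2.14-fold above TSA. Tnfrsf13c, the receptor for the survival factor BAFF, was 2.08-fold higher, Ppp1r14a, an inhibitor of myosin phosphatase, 2.19-fold and the muscle-type tropomyosin Tpm2 1.94-fold. Il1r2, a decoy receptor that takes up interleukin 1 without signalling, read 8.47, 8.41 and 8.53 with TSA and 9.80, 9.77 and 9.78 with butyrate, the second largest rise (1.32 ± 0.064).

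Other large rises were of genes that TSA had left below the untreated level. Padi4, which converts arginines of histones to citrulline, read 5.86, 5.72 and 5.57 with TSA, 6.72, 6.89 and 6.76 with butyrate and 6.64, 6.53 and 6.67 untreated. Butyrate thus stood 2.11-fold above TSA and all its arrays above the untreated ones. Tgm2, tissue transglutaminase, was 2.03-fold higher with butyrate (mean 9.28) than with TSA (8.26), with an untreated mean of 9.46. The further probe sets of Tgm2, all dimmer, gave 1.07, 1.07, 0.80, 0.32 and -0.04. The protease gene Asprv1 was 2.36-fold higher with butyrate than with TSA but lay below untreated with both, at mean levels of 8.74 untreated, 5.49 with TSA and 6.72 with butyrate. The rises that complete the 20 largest were of Ocstamp, Rufy2, Phlda1, Osgin1, Tg and Themis2, by 0.81 to 0.96, with Cxcl9, Cxcl10 and Ccl22 described with the chemokines. Rufy2 rested on uneven arrays: its difference of 0.89 ± 0.283 lost its call without TSA array 2 (0.89), TSA array 3 (0.64) or butyrate array 2 (0.66), and another probe set gave 0.06.

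**Figure D2:**
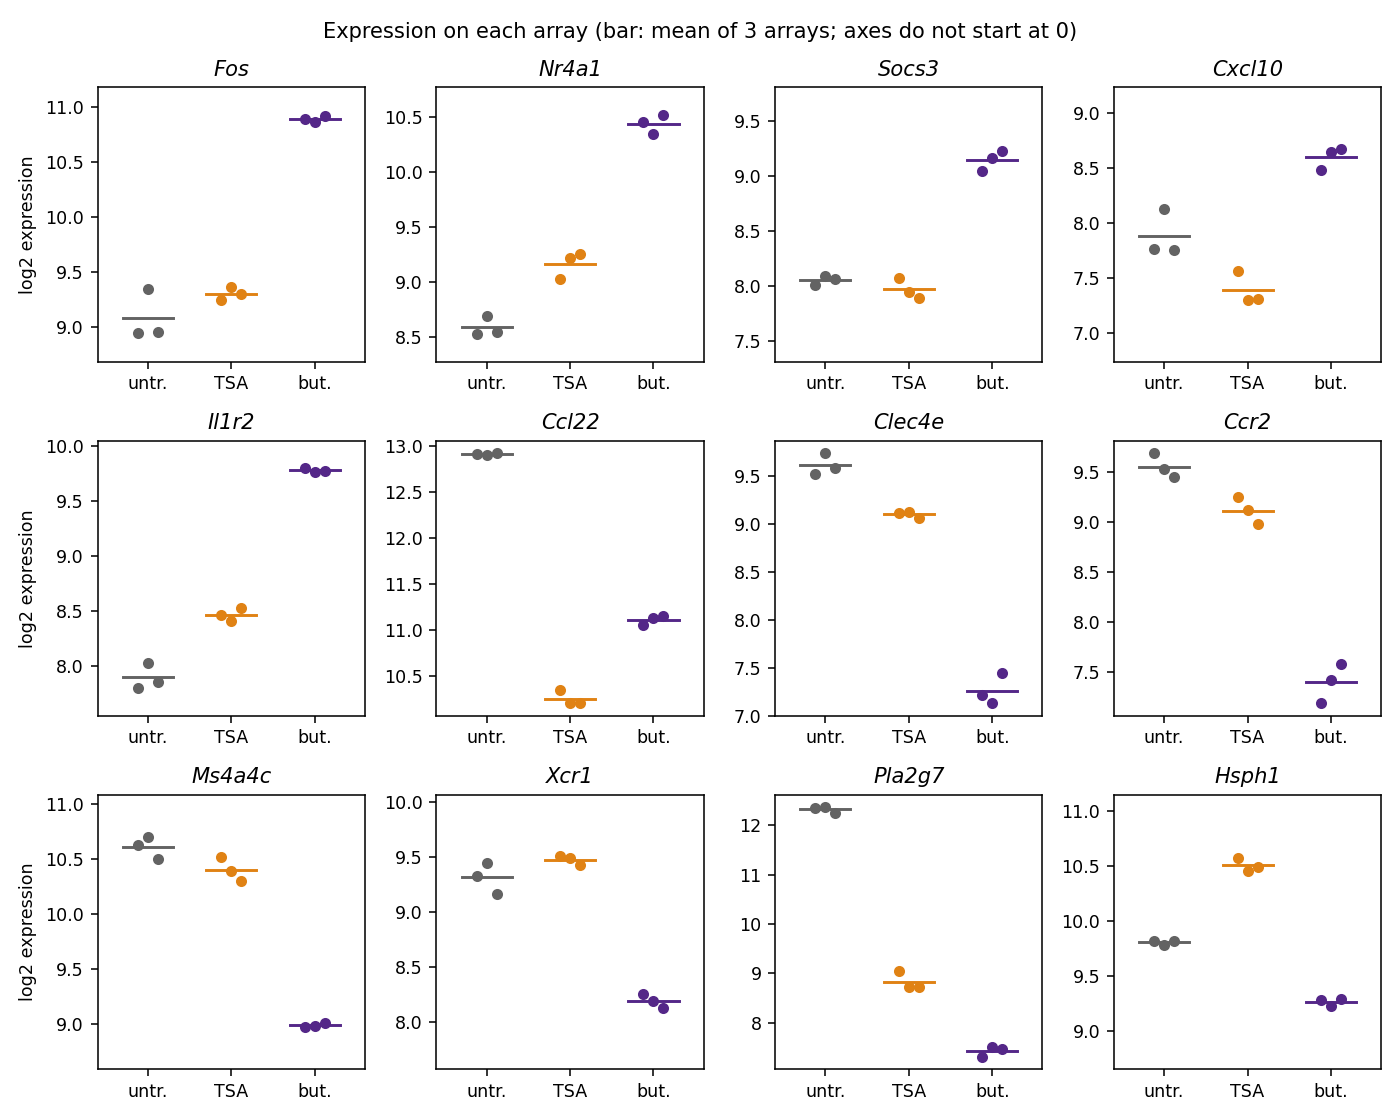
Log2 expression of 12 genes on each array (points, vertical axes) in untreated, TSA and butyrate samples, with bars at the means of 3 arrays. Fos, Nr4a1, Socs3, Cxcl10 and Il1r2 are highest with butyrate, Ccl22 with butyrate lies between untreated and TSA, and Clec4e, Ccr2, Ms4a4c, Xcr1, Pla2g7 and Hsph1 are lowest with butyrate.

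Chemokines, the secreted proteins that steer leukocytes, were more often higher than lower with butyrate. Of 25 measured, 9 were higher (36%), 2 lower (8%) and 14 not called, with a median of 0.14. Over all genes 15.9% were higher and 20.01% lower. On the hybridization scale the median of the chemokines was -0.26, with 4 higher and 15 lower. Cxcl10, a ligand of CXCR3 on activated T cells, read 7.56, 7.30 and 7.31 with TSA and 8.48, 8.65 and 8.67 with butyrate. Butyrate lay above and TSA below the untreated arrays (7.76, 8.13 and 7.75), and the difference of 1.22 ± 0.111 was 2.32-fold (adjusted p = 4.13e-05 in limma). Cxcl9, another CXCR3 ligand, read 8.40, 8.21 and 8.02 with TSA and 9.05, 9.29 and 9.26 with butyrate, higher by 0.99 ± 0.115.

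The CCR4 ligands Ccl22 and Ccl17, made by mature DC, were high in untreated cells and lower with both compounds. Ccl22 read 12.91, 12.90 and 12.92 untreated, 10.34, 10.20 and 10.20 with TSA and 11.05, 11.13 and 11.15 with butyrate, so that butyrate lay 1.82-fold above TSA. Ccl17 was higher with butyrate by 0.65 ± 0.119. Cxcl16, the ligand of CXCR6, went the other way, with 10.93, 10.91 and 10.91 with TSA and 10.25, 10.25 and 10.22 with butyrate, a difference of -0.67.

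The upstream sequence of Cxcl10 is shown because it holds the sites of both pathways that are known to drive this gene. The capitals mark, in order, the repeat bound by interferon-activated factors, GAAA and GAAA with any 2 bases between them, and an NF-kB site, a single fixed run of bases. Both were searched on both strands over 250 bases before the RefSeq start, on the minus strand at chr5:92348890-92349139 (GRCm38.p6).
Cxcl10: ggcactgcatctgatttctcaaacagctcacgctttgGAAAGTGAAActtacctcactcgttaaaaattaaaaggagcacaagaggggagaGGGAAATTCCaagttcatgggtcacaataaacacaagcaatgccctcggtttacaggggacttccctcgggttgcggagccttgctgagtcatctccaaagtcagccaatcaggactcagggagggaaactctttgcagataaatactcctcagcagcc

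Of all 9882 genes with a window, 3.35% hold the interferon repeat and 0.111% (11 genes) hold this exact NF-kB sequence. The repeat is in 8 of the 16 interferon-gamma targets with a window, and the NF-kB sequence in 3 of the 18 chemokines, Cxcl1, Cxcl2 and Cxcl10. Cxcl1 and Cxcl2, named for these letters after their values were seen, were not called between the compounds (differences of 0.28 and 0.14), but Cxcl1 was called without butyrate array 3 (0.46) and Cxcl2 without untreated array 2 (0.14). Factor binding was not measured.

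Of 35 interferon-stimulated genes, 9 were higher, 5 lower and 21 not called (median 0.05; -0.35 on the hybridization scale, with 1 higher and 25 lower). Irf7, the factor that amplifies type I interferon, read 7.75, 7.55 and 7.47 with TSA and 8.24, 8.40 and 8.26 with butyrate, both below untreated levels of 8.86, 9.18 and 8.92, and was higher with butyrate by 0.71 ± 0.097. The antiviral enzyme Rsad2 (viperin) and the nucleotide kinase Cmpk2 were each higher by 0.54. Ifi204, a DNA sensor, fell by 0.90 (7.34 against 8.25). Of 22 interferon-gamma targets, 8 were higher and 4 lower (2 and 13 on the hybridization scale); Irgm1, a GTPase of cell-autonomous defence, fell by 0.53, and Ciita, which switches on MHC class II genes, by 0.46.

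Among NF-kB subunits and inhibitors, 5 of 16 were higher, 4 lower and 7 not called, with a median of -0.02 (-0.42 on the hybridization scale, with 1 higher and 13 lower). Rel (c-Rel), which drives cytokine genes in DC, read 8.60, 8.53 and 8.46 with TSA and 7.93, 7.77 and 7.81 with butyrate, below untreated levels of 9.60, 9.62 and 9.51, and was 1.62-fold lower with butyrate. Nfkbiz, a nuclear cofactor of NF-kB, was higher by 0.66 ± 0.052 and Map3k14 (NIK), the kinase of the alternative pathway, by 0.49 ± 0.068. The inhibitor Tnip1 was higher by 0.40 on the deposited scale and at -0.003 on the hybridization scale. Rela was not called, at 0.01 with a 95% interval from -0.09 to 0.11.

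Single cytokines went both ways, and the 26.9% called in their list were below the 35.9% of all genes. Of 26 measured, 5 were higher, 2 lower and 19 not called (median 0.11; -0.29 on the hybridization scale, with 1 higher and 19 lower). Tnf, the inflammatory cytokine, read 7.82, 7.83 and 7.76 with TSA and 8.45, 8.48 and 8.54 with butyrate, higher by 0.69 ± 0.084 and above the untreated arrays at 7.31, 7.59 and 7.68. Lta (lymphotoxin) was higher by 0.56 ± 0.107 and the angiogenic factor Vegfa by 0.50 ± 0.056. Mif, the macrophage migration inhibitory factor, fell by 0.54 and Il15, which sustains NK and memory T cells, by 0.37. Mean levels of Mif were 9.88 untreated, 10.56 with TSA and 10.03 with butyrate. Il12rb1, a receptor subunit for interleukins 12 and 23, was higher by 0.69 ± 0.070 from a dim TSA level of 4.81.

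C-type lectins, surface receptors for sugars and damaged cells, held the largest falls of the comparison. Of 20 measured, 10 were lower with butyrate, 1 higher and 9 not called, with a median of -0.36 (-0.76 on the hybridization scale, with 0 higher and 17 lower). Clec4e (Mincle), a receptor for mycobacterial glycolipid, read 9.11, 9.12 and 9.06 with TSA and 7.21, 7.13 and 7.44 with butyrate, against 9.52, 9.73 and 9.58 untreated. No groups overlapped, and butyrate was 3.56-fold below TSA (-1.83 ± 0.083, adjusted p = 3.89e-06 in limma). A further probe set of Clec4e gave -1.18.

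Clec4b1 read 7.47, 7.51 and 7.32 with TSA and 5.57, 5.97 and 5.48 with butyrate, 3.39-fold lower, from an untreated level of 8.66 to 8.70. Clec4d, which pairs with Mincle, read 9.46, 9.27 and 9.26 with TSA and 8.02, 8.20 and 8.27 with butyrate, 2.24-fold lower. The activating NK receptor gene Klrk1 (NKG2D) was 2.33-fold lower. In these lectin genes butyrate lay farther below the untreated arrays than TSA did on every array.

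Receptors for chemokines included 2 of the largest falls while of the group as a whole 3 of 22 were higher, 6 lower and 13 not called (median 0.02; -0.38 on the hybridization scale, with 0 higher and 18 lower). Ccr2, through which monocytes leave the marrow and follow CCL2, read 9.25, 9.12 and 8.98 with TSA and 7.19, 7.42 and 7.58 with butyrate, against 9.69, 9.53 and 9.45 untreated. Butyrate was 3.29-fold below TSA, and both further probe sets of Ccr2 were lower too, at -1.91 and -1.09. Xcr1, the XCL1 receptor of cross-presenting DC, read 9.51, 9.49 and 9.43 with TSA and 8.26, 8.19 and 8.13 with butyrate. The TSA arrays of Xcr1 overlapped the untreated ones (9.33, 9.45 and 9.17), whereas butyrate was 2.44-fold below TSA. Ccr9, the gut homing receptor, was 1.80-fold lower.

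The Ms4a family, tetraspan membrane proteins encoded in a cluster on chromosome 19, was picked out after its values were seen, because 4 of its genes were among the 20 largest falls. Of 12 measured, 7 were lower, 4 not called and 1, the B cell gene Ms4a1, higher by 0.25; on the hybridization scale Ms4a1 was at -0.15. The call of Ms4a1 was lost without TSA array 2 (0.24) or 3 (0.22) or butyrate array 2 (0.24) or 3 (0.19). Ms4a4c read 10.52, 10.39 and 10.30 with TSA and 8.97, 8.98 and 9.01 with butyrate, 2.67-fold lower. Ms4a6b read 10.24, 10.07 and 10.08 with TSA and 8.83, 8.89 and 8.95 with butyrate, with TSA overlapping the untreated 10.19, 10.13 and 10.06. Ms4a6d was 2.89-fold and Ms4a6c 2.36-fold lower. Members of this family are similar in sequence, so probes may be shared between them.

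The cystine transporter Slc7a11 and the PAF hydrolase Pla2g7 continued downwards from TSA to butyrate. Slc7a11, which supplies cysteine for glutathione, read 10.01, 10.06 and 10.16 untreated, 7.58, 7.31 and 7.40 with TSA and 5.60, 6.13 and 6.06 with butyrate, 2.83-fold below TSA. Pla2g7, which inactivates platelet-activating factor, read 12.36, 12.37 and 12.26 untreated, 9.05, 8.73 and 8.72 with TSA and 7.31, 7.51 and 7.47 with butyrate, 2.64-fold below TSA. Hpgd, which breaks down prostaglandins, was 2.15-fold lower and Ptger2, a prostaglandin E2 receptor, 1.79-fold. Of 22 eicosanoid and PAF genes, 3 were higher, 4 lower and 15 not called (median 0.03; -0.37 on the hybridization scale, with 0 higher and 18 lower).

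Further large falls were of other kinds of genes. The tight junction gene Cldn1 fell by 1.41, but its 3 further probe sets, all dimmer, gave differences of 0.06, 0.05 and -0.20. Tbc1d19, a gene of the Rab GTPase regulator family, fell by 1.14, with means of 5.21 untreated, 6.35 with TSA and 5.20 with butyrate. Gpr34, a lysophospholipid receptor, fell by 1.26, and Il7r, the interleukin 7 receptor, read 8.15, 8.06 and 7.99 with TSA and 7.12, 6.99 and 7.04 with butyrate. Of 26 genes of tryptophan, aryl hydrocarbon and retinoid metabolism, 3 were higher and 9 lower (0 and 21 on the hybridization scale). The aryl hydrocarbon receptor targets Cyp1a1 and Ahrr were 1.96-fold and 1.94-fold lower, and the receptor Ahr itself 1.29-fold, while its dimmer probe set gave 0.05.

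Chaperones were lower with butyrate than with TSA almost throughout. Of 23 heat shock and folding genes, 19 were lower with butyrate, 0 higher and 4 not called, with a median of -0.37, the lowest of the 60 pathway lists; on the hybridization scale it was -0.78 and all 23 were lower. The list's median was 0.36 for TSA minus untreated and -0.01 for butyrate minus untreated, which share the untreated arrays. Hsph1 (Hsp110), a nucleotide exchange factor for Hsp70, read 10.57, 10.46 and 10.49 with TSA and 9.28, 9.23 and 9.29 with butyrate, on either side of the untreated 9.82, 9.78 and 9.82. Butyrate was 2.36-fold below TSA for Hsph1 (adjusted p = 2.28e-06 in limma), and a further probe set gave -1.37.

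Hspa9, the Hsp70 of mitochondria, read 9.57, 9.57 and 9.66 with TSA and 8.58, 8.58 and 8.77 with butyrate, again on either side of untreated levels of 9.09, 9.10 and 9.11. The Hsp70 cochaperone St13 fell by 0.69 (0.10 at its dimmer probe set) and Cct3, a subunit of the chaperonin that folds actin and tubulin, by 0.55. The mitochondrial chaperonin genes Hspe1 and Hspd1, chosen for display after their values were seen, fell by 0.42 and 0.37.

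The shared promoter of Hspe1 and Hspd1 is shown because it carries a heat shock element, the site of the heat shock factor HSF1. The capitals mark 2 overlapping matches to that element, taken as GAA, TTC and GAA with any 2 bases between neighbours and searched on both strands, within the 250 bases before the RefSeq start of Hspe1, on the plus strand at chr1:55087898-55088147 (GRCm38.p6).
Hspe1: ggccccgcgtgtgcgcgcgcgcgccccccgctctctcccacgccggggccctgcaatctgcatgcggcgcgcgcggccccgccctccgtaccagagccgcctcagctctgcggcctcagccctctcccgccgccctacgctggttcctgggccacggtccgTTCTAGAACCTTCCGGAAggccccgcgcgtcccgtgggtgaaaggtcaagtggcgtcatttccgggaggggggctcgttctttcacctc

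The element is in 0.465% of the windows (46 genes) and in 2 of the 19 heat shock and folding genes with a window, Hspd1 and Hspe1. As these genes share a promoter, the 2 may not be separate occurrences. For the others, the letters are not in these 250 bases, which says nothing about the factor.

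Genes that make ribosomes were lower with butyrate as well. Of 39 ribosome biogenesis genes, which process ribosomal RNA in the nucleolus, 25 were lower, 0 higher and 14 not called (median -0.26; -0.66 on the hybridization scale, with 38 lower). Rrs1, needed for the large subunit, read 7.96, 7.84 and 7.96 with TSA and 6.77, 6.79 and 6.88 with butyrate, 2.15-fold lower. Utp20, of the small subunit processome, was 2.17-fold lower, Gar1, of the complex that modifies ribosomal RNA, 1.99-fold and Heatr1 1.97-fold. Rrp15, of the large subunit pathway and outside that list, fell by 1.15. The median of the biogenesis list was 0.24 for TSA minus untreated and -0.08 for butyrate minus untreated. The structural proteins of the cytosolic ribosome differed little: 43 of 46 were not called, 3 were lower, and the median was -0.003 (-0.40 on the hybridization scale, with 45 lower).

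Mitochondrial and proteasome genes were often slightly lower with butyrate than with TSA. Of 74 mitochondrial ribosomal proteins, 42 were lower and 2 higher (median -0.20), of 75 subunits of oxidative phosphorylation 41 were lower and 2 higher (median -0.17), and of 46 proteasome genes 31 were lower and 0 higher (median -0.20). On the hybridization scale these counts were 73, 72 and 45 lower with 0 higher. In the same order, the list medians were 0.15, 0.20 and 0.10 for TSA minus untreated. For butyrate minus untreated, which shares the untreated arrays, they were -0.09, 0.04 and -0.09. Mrpl3 read 8.83, 8.82 and 8.80 with TSA and 8.09, 7.90 and 7.99 with butyrate, 1.77-fold lower. Ndufa5, of respiratory complex I, read 9.12, 9.17 and 9.14 with TSA and 8.36, 8.40 and 8.34 with butyrate, on either side of the untreated 8.69, 8.63 and 8.74. The proteasome lid subunits Psmd14 and Psmd6 fell by 0.55 and 0.49.

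Splicing factors followed the same direction, with 28 of 62 lower, 2 higher and a median of -0.14 (-0.54 on the hybridization scale, with 60 lower). Prpf31, which holds the tri-snRNP together, fell by 0.88 and Snrpa1, of the U2 particle, by 0.62. Mean levels of Snrpa1 were 9.01 untreated, 9.73 with TSA and 9.10 with butyrate. Of 28 genes of pyruvate and the TCA cycle, 12 were lower and 3 higher, with a median of -0.14. On the hybridization scale the median was -0.54, with 0 higher and 27 lower. The medians against untreated cells were 0.24 for TSA and 0.14 for butyrate in this list, and 0.09 and -0.05 in that of splicing factors. The dehydrogenase subunit Dld fell by 0.55 and the pyruvate dehydrogenase kinase Pdk3 by 0.59. Of 18 glycolysis genes 6 were higher and 4 lower (0 and 13 on the hybridization scale). The glucose transporter Slc2a1 was higher by 0.53 ± 0.060 and Slc2a3 by 0.36 ± 0.058, the latter at -0.05 on the hybridization scale, while hexokinase Hk2 fell by 0.30.

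**Figure D3:**
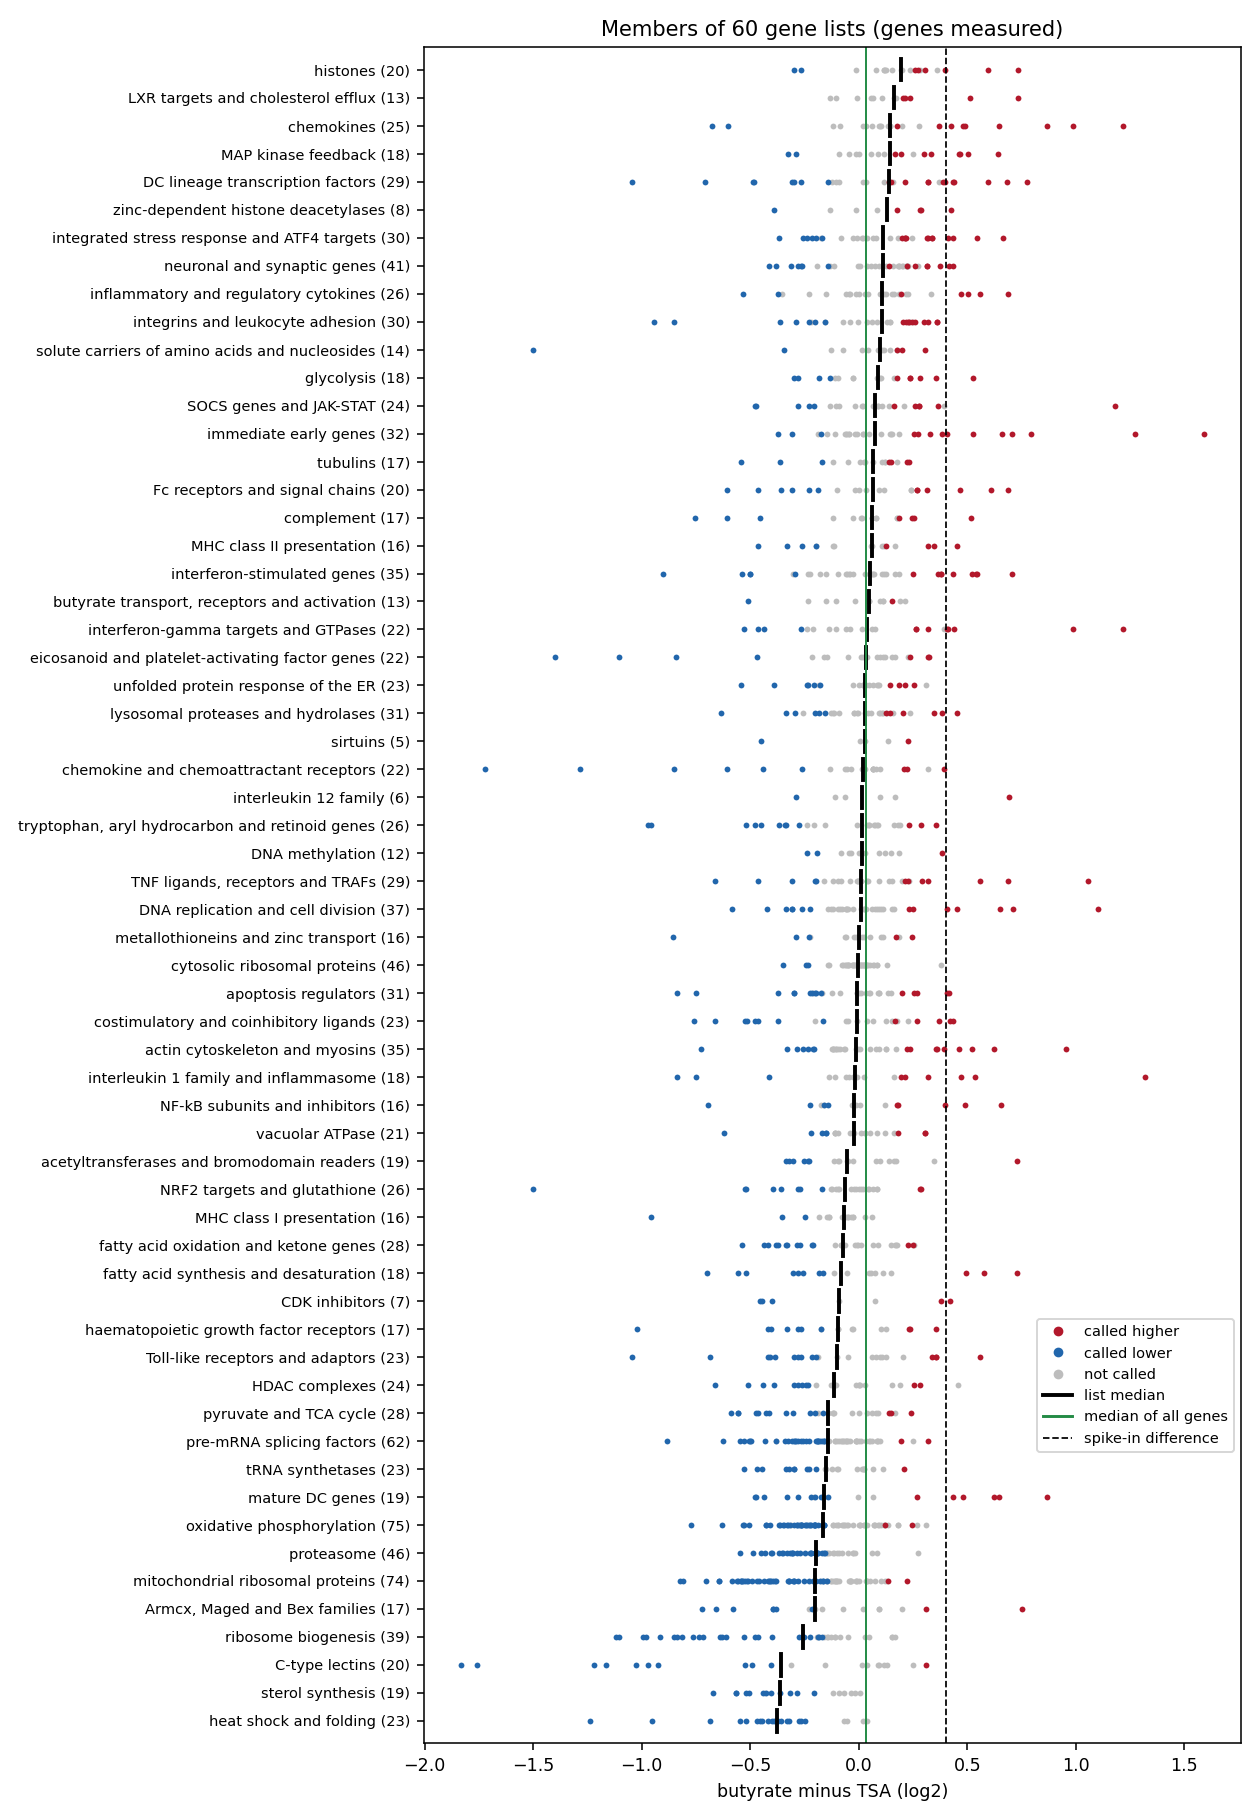
Butyrate minus TSA (log2, horizontal axis) for the measured members of 60 pathway lists (rows, number of genes in brackets), coloured by call, with list medians as black bars. Heat shock, sterol synthesis, C-type lectin and ribosome biogenesis lists lie farthest left of the green line at the median of all genes, and all list medians lie left of the dashed line at the spike-in difference of 0.40.

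Lipid genes parted by pathway. Of 19 sterol synthesis genes, 12 were lower with butyrate, 0 higher and 7 not called (median -0.36; -0.77 on the hybridization scale, with all 19 lower). Cyp51, a demethylase on the way to cholesterol, read 10.61, 10.62 and 10.62 untreated, 9.52, 9.49 and 9.38 with TSA and 8.77, 8.74 and 8.86 with butyrate, stepping down without overlap. Sc5d and Nsdhl, further enzymes of that branch, each fell by 0.56. Of 13 genes of LXR and cholesterol efflux, 5 were higher and 0 lower (median 0.16; -0.24 on the hybridization scale, with 1 higher and 9 lower). The exporter Abcg1 read 9.37, 9.35 and 9.34 with TSA and a mean of 10.09 with butyrate (highest array 10.19), nearer the untreated 10.35, 10.35 and 10.25, and Abca1 was higher by 0.51 ± 0.103. The further probe sets of Abca1, all dimmer, gave -0.05 and 0.04 and were not called.

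Of 18 genes of fatty acid synthesis and desaturation, 3 were higher and 8 lower (1 and 15 on the hybridization scale). The desaturase Scd1 was higher by 0.73 ± 0.059 and Scd2 by 0.58 ± 0.053, while fatty acid synthase Fasn read 8.74, 8.71 and 8.71 with TSA and 8.20, 8.08 and 8.21 with butyrate, 1.47-fold lower. The desaturase Fads2 fell by 0.70 ± 0.204 with butyrate arrays of 7.12, 6.07 and 6.81, and its call was lost without TSA array 1 (-0.72), array 2 (-0.71) or array 3 (-0.66); its dimmer probe set gave -0.08. Of 28 genes of fatty acid oxidation and ketone metabolism, 2 were higher and 11 lower, with a median of -0.07. On the hybridization scale the median was -0.47, with 0 higher and 25 lower. Bdh1, which interconverts ketone bodies, fell by 0.54 and Pparg, a lipid-sensing nuclear receptor, by 0.42. Mean levels untreated, with TSA and with butyrate were 5.34, 7.21 and 6.67 for Bdh1 and 8.11, 6.49 and 6.07 for Pparg. Bdh1 thus stood above untreated cells with both compounds.

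Among redox and stress genes, 8 of 26 NRF2 targets were lower and 2 higher (24 and 0 on the hybridization scale). Beside Slc7a11, the heme oxygenase Hmox1 and the quinone reductase Nqo1 each fell by 0.52. Of 30 genes of the integrated stress response, 12 were higher and 6 lower (median 0.11; -0.29 on the hybridization scale, with 1 higher and 18 lower). Ddit4, an inhibitor of mTORC1, was higher by 0.67 ± 0.078, the glutathione-degrading Chac1 by 0.55 ± 0.085 and Sesn2 by 0.41 ± 0.057. Of 23 genes of the unfolded protein response of the endoplasmic reticulum, 4 were higher and 6 lower (0 and 20 on the hybridization scale). Hspa5 (BiP) was higher by 0.26, but at -0.14 on the hybridization and -0.02 on the poly-A scale, while the cochaperone Dnajb9 fell by 0.54.

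The zinc-dependent HDACs, the family in which both compounds have targets, were often called but with differences of 0.43 or less in size. Of 8 genes measured, 4 were higher, 1 lower and 3 not called, so 62.5% were called against 35.9% of all genes (median 0.13; -0.27 on the hybridization scale, with 0 higher and 5 lower). Hdac2 read 9.48, 9.53 and 9.48 with TSA and 9.07, 9.11 and 9.13 with butyrate, both above the untreated 8.94, 8.78 and 8.79, and was 1.31-fold lower with butyrate. Hdac1 was higher by 0.28 and Hdac5 by 0.29, each at -0.12 on the hybridization scale. Hdac11 was higher by 0.43 ± 0.110, without a call when TSA array 3 was left out (0.35). Hdac3 was not called, with a 95% interval from -0.12 to 0.09, nor was Hdac6 (-0.27 to 0.01).

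Partners and readers of HDACs also moved in single genes. Of 24 members of HDAC complexes, 2 were higher and 9 lower (0 and 21 on the hybridization scale). Sap30 and Sin3b, of the SIN3 corepressor, fell by 0.66 and 0.51, though a dimmer probe set of Sin3b gave 0.14. Mean levels of Sap30 were 10.08 untreated, 10.83 with TSA and 10.16 with butyrate. Of 19 acetyltransferases and bromodomain readers, 1 was higher, 6 lower and 12 not called (median -0.06; 1 higher and 16 lower on the hybridization scale). The 1 higher was Brd2, while the acetyltransferases Crebbp and Kat2b fell by 0.34 and 0.32 and the reader Baz2b by 0.30. Brd2, a bromodomain protein that binds acetylated histones, read 11.39, 11.34 and 11.18 with TSA and 12.06, 12.04 and 11.99 with butyrate, 1.65-fold higher, with untreated arrays spread from 10.81 to 11.36. Of 20 histone genes, 6 were higher and 2 lower (median 0.20, the highest of the 60 lists; -0.20 on the hybridization scale, with 2 higher and 9 lower). H2aw read a mean of 9.98 with TSA (lowest array 9.97) and 10.67, 10.70 and 10.79 with butyrate, above untreated levels of 9.02, 8.98 and 8.87. The linker histone H1f2 rose with both compounds over untreated, at means of 10.98, 13.15 and 13.55, and its 0.40 between the compounds became -0.001 on the hybridization scale.

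Of 37 genes of replication and division, 7 were higher and 7 lower (3 and 30 on the hybridization scale), and the 37.8% called were near the 35.9% of all genes. Beside Ccnd2, the licensing factor Cdc6 was higher by 0.71 ± 0.068 and the ribonucleotide reductase subunit Rrm2 by 0.65 ± 0.045, while the clamp loader subunit Rfc3 fell by 0.58. Of 7 CDK inhibitors, 2 were higher and 3 lower (0 and 5 on the hybridization scale). Cdkn1a (p21) was higher by 0.42 ± 0.052, little more than the spike-in difference of 0.40, whereas Cdkn1b and Cdkn2b each fell by 0.45. Cdkn1a read 11.81, 11.80 and 11.70 with TSA and 12.17, 12.19 and 12.21 with butyrate, both below the untreated arrays at 12.30 to 12.43. Of the caspases that act in inflammation, Casp1 fell by 0.75 and Casp4 by 0.84.

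Of 29 DC lineage transcription factors, 12 were higher and 8 lower (median 0.14; -0.26 on the hybridization scale, with 3 higher and 19 lower). Irf4, which directs the CD11b-type DC and plasma cell programmes, read 7.79, 7.67 and 7.69 with TSA and 8.37, 8.41 and 8.43 with butyrate. TSA overlapped the untreated 7.66, 7.72 and 7.77, and butyrate was 1.61-fold higher, though a dimmer probe set gave 0.06. Spib, a factor of plasmacytoid DC, was likewise apart with butyrate alone, at 10.47, 10.46 and 10.53 against 9.70, 9.72 and 9.73 with TSA and 9.57 to 9.79 untreated. Irf8, required for CD8-type DC, was higher by 0.32, and at -0.08 on the hybridization scale. Zeb2, a factor of monocyte and plasmacytoid fate, fell by 1.04 ± 0.200 and Gfi1 by 0.71 ± 0.086.

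Pattern recognition genes tended lower, 10 of 23 Toll-like receptors and adaptors against 4 higher (18 and 0 on the hybridization scale). The LPS coreceptor Cd14 read 7.43, 7.43 and 7.24 with TSA and 6.43, 6.20 and 6.34 with butyrate, 2.07-fold lower, from an untreated 8.73, 8.84 and 8.52. Tlr1, which pairs with TLR2, fell by 0.68 and the transcription factor Irf5 by 0.42 (0.12 at a dimmer probe set), while Ly86, the partner of the TLR4 homologue CD180, was higher by 0.56 ± 0.051. Among Fc receptors and their signal chains 6 of 20 were higher and 6 lower (1 and 12 on the hybridization scale). Fcgrt, the neonatal Fc receptor, was higher by 0.69 ± 0.050 and the inhibitory receptor Sirpa fell by 0.61.

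Of 16 MHC class II genes 4 were higher and 4 lower (0 and 13 on the hybridization scale), and the class II chain H2-Ab1 read 14.12, 14.07 and 14.08 with TSA and 13.88, 13.88 and 13.91 with butyrate, 1.15-fold lower. H2-Oa, a modulator of peptide loading, was higher by 0.35, but at -0.05 on the hybridization scale, and the lysosomal protease cathepsin L (Ctsl) by 0.45. Of 16 MHC class I genes 0 were higher, 3 lower and 13 not called (median -0.07), 14 of the 16 differences were negative, and all 16 genes were lower on the hybridization scale. Erap1, which trims peptides, read 7.46, 7.27 and 7.48 with TSA and 6.46, 6.38 and 6.50 with butyrate, 1.94-fold lower. Of 23 costimulatory and coinhibitory ligands 5 were higher and 8 lower (0 and 18 on the hybridization scale); Cd244a, a receptor for CD48, fell by 0.76, Tnfsf4 (OX40 ligand) by 0.66 and Cd48 by 0.52. Of 19 mature DC genes 6 were higher and 9 lower (3 and 13 on the hybridization scale), led upwards by Ccl22, Ccl17 and the actin bundler Fscn1, which was higher by 0.62 ± 0.058, while its 3 further probe sets, all dimmer, gave 0.14, 0.17 and 0.15 and were not called.

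A set of 54 genes of DC activation, HDACs, lipid metabolism and butyrate handling, 51 of them measured, is reported whatever the values. Of the 51, 13 were higher, 15 lower and 23 not called, and for 20 of the 23 the 95% interval lay within 0.5 of zero in either direction, as it did for 84.5% of all genes. Pdcd1lg2 (PD-L2) read 6.34, 5.88 and 6.06 with TSA and 6.21, 5.87 and 6.19 with butyrate, far below the untreated 9.86, 9.88 and 9.83; the treated arrays overlapped and the interval ran from -0.27 to 0.26. The homing receptor Ccr7 read 10.88, 10.80 and 10.83 with TSA and 10.89, 10.92 and 10.90 with butyrate, with an interval from -0.04 to 0.17, from an untreated level of 12.86 to 12.94. Metallothionein Mt1 had an interval from -0.10 to 0.15 and Flt3 from -0.13 to 0.07. These intervals bound the difference on the deposited scale; on the hybridization scale the difference of Ccr7 was -0.33, of Mt1 -0.37 and of Flt3 -0.43.

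Cd80 was not called (interval -0.06 to 0.19), and Cd40 was not called either (0.00 to 0.24), though a further probe set of Cd40 was higher by 0.36. The interval of Il6, a dim gene in treated cells, ran from -0.72 to 0.02, and that of Il12a from -0.15 to 0.35. Il10 read 3.77 to 4.03 with TSA and 3.82 to 4.09 with butyrate, near the lower end of the array's range. The interval of Tgfb1 was -0.01 to 0.20, of Cpt1a -0.08 to 0.26 and of Mt2 -0.17 to 0.54. Leaving out 1 array added calls for 6 of the 51 genes, Slc16a1, Slc16a3 and Hcar2 among them, which are described with butyrate handling. Cd274 (PD-L1) was called without TSA array 1 or butyrate array 1 (0.22 each), Il23a without butyrate array 3 (0.25) and Ido1 without TSA array 3 (-0.37).

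Small called differences were similarly fragile. Il12b, the p40 subunit of interleukin 12, was at mean levels of 9.88 untreated, 5.88 with TSA and 5.59 with butyrate; its fall by 0.29 between the compounds lost its call without TSA array 1 (-0.30) or 2 (-0.22) or butyrate array 1 (-0.20), and a further probe set gave 0.14. Relb read 11.36 to 11.41 untreated, 9.10 to 9.21 with TSA and 8.97 to 9.06 with butyrate. It fell by 0.14 and lost its call without any 1 of the untreated or TSA arrays or butyrate array 1 or 3 (-0.17 to -0.11), keeping it only without butyrate array 2. Cd86 fell by 0.16, without a call when TSA array 1 (-0.15) or 3 (-0.14) or butyrate array 1 (-0.15) or 2 (-0.16) was left out, and its further probe set gave -0.04. Il1b was higher by 0.20, without a call when TSA array 1 (0.16) or butyrate array 2 (0.15) was left out. Aldh1a2, which makes retinoic acid, fell by 0.28, without a call when TSA array 3 (-0.23) or butyrate array 1 (-0.21) was left out.

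Genes that handle butyrate itself showed few calls, 15.4% against 35.9% of all genes. Of 13 transporters, receptors and activating enzymes, 1 was higher, 1 lower and 11 not called (median 0.05; -0.35 on the hybridization scale, with 0 higher and 12 lower). The monocarboxylate transporter Slc16a7 (MCT2) fell by 0.51, with means of 4.89 untreated, 5.34 with TSA and 4.83 with butyrate. The main transporter Slc16a1 (MCT1) read 9.40, 9.41 and 9.50 with TSA and 9.30, 9.24 and 9.31 with butyrate, with an interval from -0.28 to -0.02 and an adjusted p of 0.0634 in limma. Slc16a1 and Slc16a3 were each called when untreated array 2 was left out, at -0.15 and -0.24. The butyrate receptor genes Ffar2 (GPR43) and Hcar2 (GPR109A) had intervals from -0.07 to 0.27 and 0.03 to 0.40, and Hcar2 was called without butyrate array 2 (0.29). A dimmer probe set of Ffar2 was higher with butyrate by 0.23 (limma p adjusted over all probe sets = 0.0436). The sodium-coupled transporter Slc5a8 read 3.96 to 4.20 over the treated arrays, near the lower end of the range. Acsm3, a medium-chain acyl-CoA synthetase, was higher by 0.15 from a dim 4.57, and lost its call without any of the 3 TSA arrays (0.15 to 0.16) or butyrate array 2 (0.12) or 3 (0.16).

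**Figure D4:**
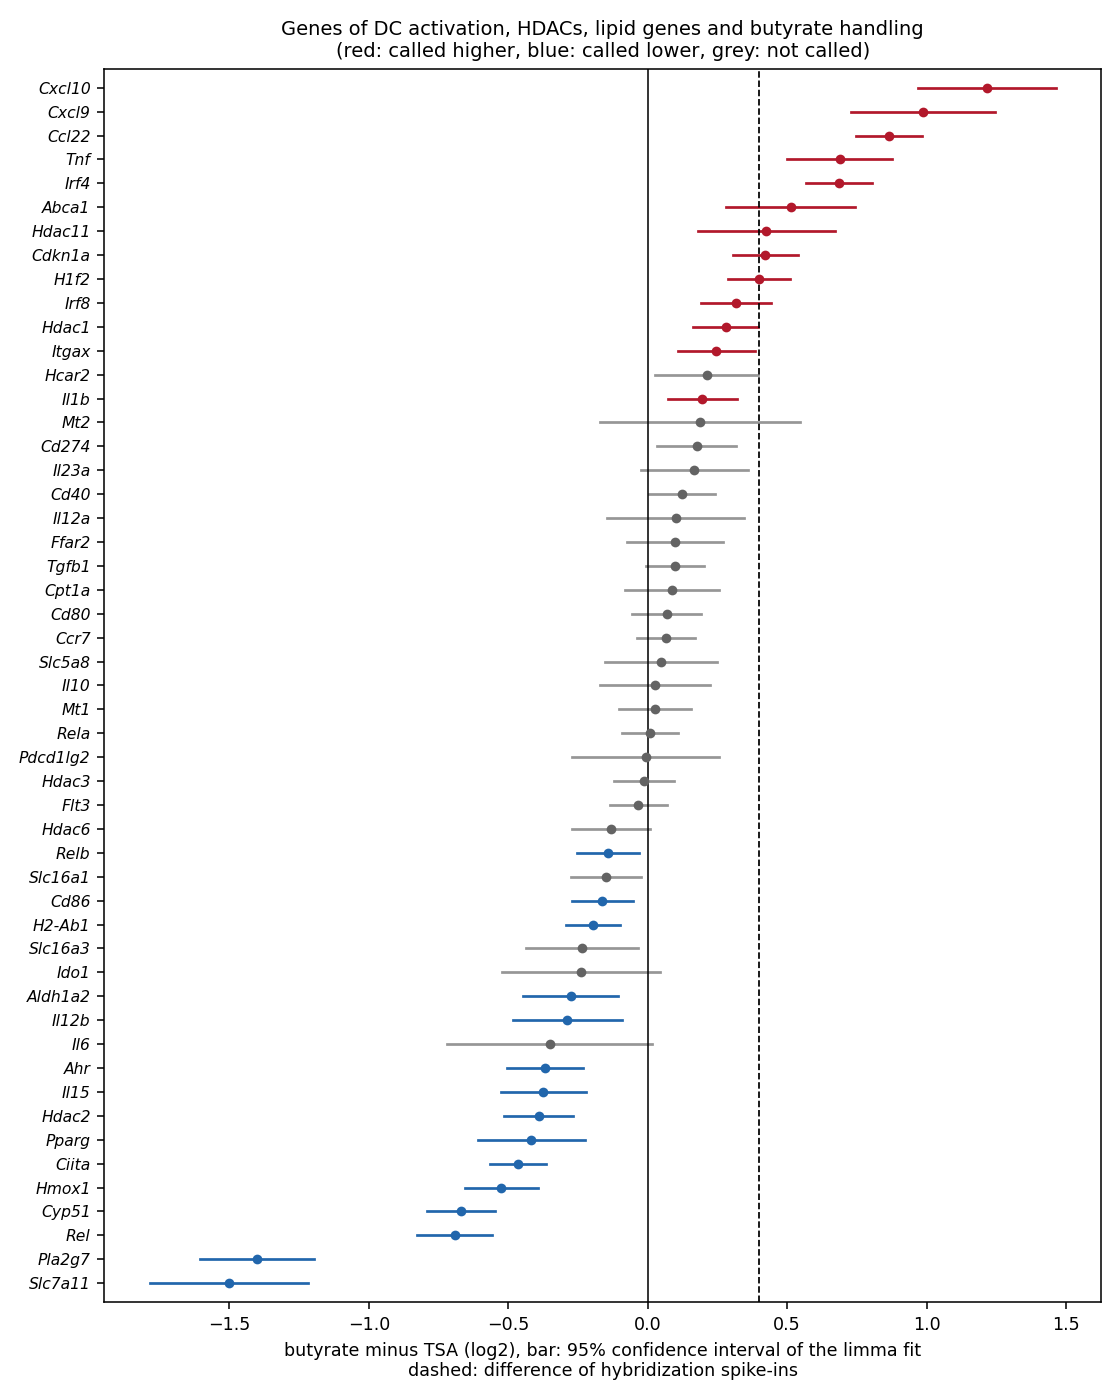
Butyrate minus TSA (log2, horizontal axis) with 95% confidence intervals of the limma fit for the 51 genes reported whatever their values (rows), red for called higher, blue for called lower and grey for not called. Of these genes 23 are grey, and of their intervals only that of Mt2 crosses the dashed line at the spike-in difference of 0.40.

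Markers of some other cells differed between the compounds. Of 13 neutrophil markers, 10 were higher with butyrate and 1 lower, with a median of 0.24 (-0.17 on the hybridization scale, with 1 higher and 4 lower); their mean level per array ran from 9.35 to 9.43 with TSA, 9.61 to 9.66 with butyrate and 10.01 to 10.06 untreated. Il1r2 is itself among these markers, as are lactoferrin (Ltf), higher by 0.59, and the collagenase Mmp8, which fell by 0.87. Of 9 erythroid markers 5 were higher and 0 lower (median 0.26; 0 and 4 on the hybridization scale), with array means of 9.14 to 9.19 with TSA and 9.39 to 9.45 with butyrate. Fewer cells of a type and less RNA per cell cannot be told apart in these bulk samples.

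Monocyte and macrophage markers, which include Ccr2 and Cd14, were called less often than the 35.9% of all genes, at 27.8%, with 4 of 18 lower, 1 higher and 13 not called (median -0.08; 0 higher and 15 lower on the hybridization scale), with array means of 7.67 to 7.74 with TSA and 7.41 to 7.57 with butyrate. Of 13 CD11b-type DC markers 4 were lower and 2 higher, led by Clec4a2 at -0.93, and of 11 CD8-type DC markers 6 were higher and 2, Xcr1 and Gcsam, lower (on the hybridization scale 0 were higher in both lists, and 11 and 6 were lower). Of 10 NK cell markers 3 were lower, led by Klrd1 at -0.97, and 1 higher (9 lower and 0 higher on the hybridization scale). Of 9 markers of the B16 tumour 2 were higher and 1, Gpnmb, which macrophages also express, lower (0 higher and 8 lower on the hybridization scale), and the 33.3% called were near the share of all genes. Of 7 platelet markers 3 were higher and 0 lower, and all 7 differences were positive; of 11 B cell markers 3 were higher and 1 lower, and of 10 plasmacytoid DC markers 3 were higher and 3 lower. On the hybridization scale these 3 lists had 0, 0 and 2 genes higher and 4, 7 and 8 lower. The T cell, mast cell and stromal lists had 2 of 9, 2 of 7 and 3 of 10 higher and 0 lower, and the plasma cell list 3 of 7 higher and 2 lower, on the deposited scale; on the hybridization scale these 4 lists had 0, 0, 0 and 1 higher and 7, 5, 5 and 4 lower. The part of such cells in the differences above was not tested.

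**Figure D5:**
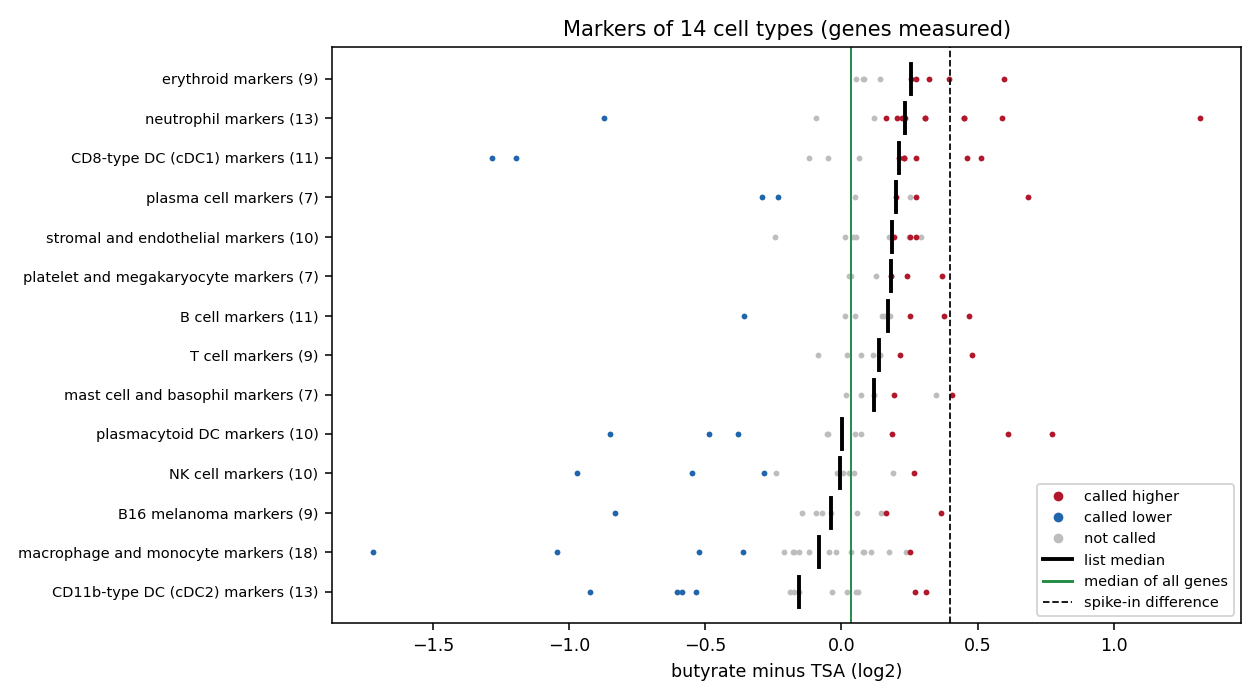
Butyrate minus TSA (log2, horizontal axis) for the measured markers of 14 cell types (rows, number of genes in brackets), coloured by call, with list medians as black bars. Erythroid and neutrophil medians are highest, at 0.26 and 0.24, and the CD11b-type DC median is lowest, below the green line at the median of all genes.

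RNA quality was compared through probe sets for the ends of control transcripts. The 3′ minus 5′ difference of beta-actin was 0.64 ± 0.04 with TSA and 0.68 ± 0.04 with butyrate (SD, n = 3; exact permutation p = 0.3), and that of Gapdh 0.19 ± 0.02 and 0.22 ± 0.04 (exact permutation p = 0.3). For pyruvate carboxylase it was 0.84 ± 0.12 and 0.36 ± 0.23 (exact permutation p = 0.1, the smallest possible), and for the transferrin receptor 1.92 ± 0.19 and 1.87 ± 0.07 (exact permutation p = 0.9). The spread of values within an array was narrower with butyrate, with SDs of 2.26 against 2.30.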

How the data were processed

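RNA of 9 samples (3 untreated, 3 TSA, 3 butyrate) was measured on one-colour Affymetrix arrays. The deposited log2 values were made by the authors with RMA, per the submitters' processing notes; the version is not given in the sources used here. RMA makes the arrays' distributions alike, so differences are relative to the bulk of genes. Of 22690 probe sets, 64 were controls, 20380 had 1 gene symbol in the platform annotation of 2016, 691 several and 1555 none; 20351 matched RefSeq genes (GRCm38.p6). Each of 12393 genes is represented by its probe set of highest mean over the 9 arrays. limma 3.58.1 (lmFit, eBayes; R 4.3.3) fitted 3 group means over all 9 arrays, with Benjamini-Hochberg adjustment over all genes; the procedure was tested on simulated data. The number of arrays limits the precision, and no 2 arrays were identical.

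Genes named are the 20 largest rises and 20 largest falls with non-overlapping arrays (leaving out predicted, clone-named, antigen receptor and olfactory receptor genes), up to 4 called members of each of 60 pathway and 14 marker lists with the largest differences, and the 54 genes given whatever their values; others are said to be chosen after their values were seen. The comparison, genes and lists were chosen with earlier results of these data known. Alternatives were other scalings, filters, probe sets and fits and leaving out each array.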

Additional observations from a re-analysis of the deposited data

How the results depend on the processing

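The choice of scale moved the results most. Scaling to the hybridization spike-ins subtracts their brighter signal on the butyrate arrays from every gene: 93 genes were then called higher and 10047 lower (0.917% of calls higher), 1 and 277 at least 2-fold, with a median difference of -0.37. The poly-A spike-ins gave 59 and 3075 (1.88% higher), 2 and 137 at least 2-fold, and a median of -0.24. Of the 198 genes named, 19 lost their call without a change of sign on the hybridization scale, and 33 on the poly-A scale. Small differences changed sign by that construction. On the hybridization scale Itgax stood at -0.15, Cxcl2 at -0.26, Tnip1 at -0.0033, Rela at -0.39, Ms4a1 at -0.15, Slc2a3 at -0.0453, Hspa5 at -0.14, Hdac1 and Hdac5 at -0.12, H1f2 at -0.001, Irf8 at -0.0836, H2-Oa at -0.0539, Ccr7 at -0.33, Mt1 at -0.37, Cd80 at -0.33, Cd40 at -0.28, Il12a at -0.30, Il10 at -0.37, Tgfb1 at -0.30, Cpt1a at -0.31, Cd274 and Il23a at -0.23, Il1b at -0.21, Ffar2 at -0.30, Slc5a8 at -0.35, Acsm3 at -0.25 and Psap at -0.0548. On the poly-A scale Itgax stood at -0.0259, Ms4a1 at -0.0202, Hspa5 at -0.0165, Il1b at -0.0769 and Acsm3 at -0.12. The median of all genes, which is small, was 0.0178 after a further quantile normalization and 0.0381 with arrays centred on their median. It was 0.0384 with the most variable probe set per gene and -0.0609 over the genes above the median level. Among those genes 1284 were called higher and 2405 lower, against 1968 and 2480 over all genes. In the fit of all genes, the 3099 dimmest held 305 higher and 49 lower, and the 3098 next dimmest 604 and 341.

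Leaving out 1 array gave 1396 to 2009 genes higher, 2001 to 2474 lower, 11 to 13 at least 2-fold higher, 30 to 46 at least 2-fold lower and a median of 0.0279 to 0.0335. Of the 198 genes named, 173 were called, 10 of which lost the call in at least 1 of these fits. Under every alternative that held them, 126 of the 198 kept their side of the threshold and, where called, their direction. The filter to genes above the median level left out the dimmer named genes, which it could not test. Scaling to the spike-ins could not turn a fall positive. With the replicate number as a block, 1807 genes were higher and 2309 lower, with 11 and 36 at least 2-fold. TSA and butyrate arrays of the same number had deviations from their group means correlated at -0.06, 0.05 and -0.02. Pairs of the same number that include an untreated array ran from -0.12 to 0.21, and pairs of unlike number from -0.25 to 0.16. Such values cannot show whether arrays of the same number share a mouse, culture or batch. The precision is limited by 3 arrays per group, and genes near the lower end of the signal range have only weakly measured differences.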

Other observations

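Some genes that both compounds raised over untreated cells were lower with butyrate than with TSA. Of 17 genes of the Armcx, Maged and Bex families, small families of low expression in blood cells, 7 were lower with butyrate, 2 higher and 8 not called. The median difference was -0.20 (-0.60 on the hybridization scale, with 1 higher and 14 lower). The list's median was 0.31 for TSA minus untreated and 0.33 for butyrate minus untreated. Maged1, an adaptor of neurotrophin signalling, read 5.53, 5.72 and 5.58 untreated, 8.14, 8.11 and 8.13 with TSA and 7.48, 7.58 and 7.60 with butyrate. Its 3 groups did not overlap, and the difference between the compounds was -0.58 ± 0.060. Armcx2 fell by 0.66 and Magee1 by 0.72, while Bex6, at means of 6.55 untreated, 6.08 with TSA and 6.83 with butyrate, was higher by 0.75. Outside these families, the lipase-like gene Abhd3 read 8.28, 8.26 and 8.34 with TSA and 7.06, 6.93 and 7.31 with butyrate, 2.28-fold lower, from an untreated mean of 4.63, and the actin-binding profilin Pfn2, named after its values were seen, fell by 0.73. Of 41 neuronal and synaptic genes, 8 were higher and 7 lower (0 and 25 on the hybridization scale), and the 36.6% called were near the 35.9% of all genes. Among them the neurofilament Ina was higher by 0.44 and the synaptotagmin Syt11 fell by 0.38. Mean levels of Syt11 were 6.23 untreated, 7.85 with TSA and 7.46 with butyrate.

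Of 30 integrins and adhesion genes, 10 were higher and 7 lower (0 and 18 on the hybridization scale). The scavenger receptor Cd36 read 10.49, 10.27 and 10.32 with TSA and 9.35, 9.36 and 9.53 with butyrate, 1.92-fold lower, and Itga4, the alpha 4 integrin of homing, was 1.80-fold lower. Of 31 lysosomal genes, 6 were higher and 6 lower (0 and 26 on the hybridization scale), with 38.7% called, near the share of all genes. Alpha-galactosidase Gla fell by 0.63 (-0.12 at a dimmer probe set), whereas prosaposin Psap was higher by 0.35 on the deposited scale and at -0.05 on the hybridization scale. Of 17 complement genes, 4 were higher and 3 lower (0 and 13 on the hybridization scale), with C3ar1, a receptor for the C3a fragment, at -0.61.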
